A study of Mus musculus with 16 samples.

Results

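A set of 10 genes of antigen presentation by MHC class II molecules was followed in cultured mouse macrophages, taken by symbol from the deposited gene table: H2-Aa, H2-Ab1, H2-Eb1, Cd74, Ciita, H2-DMa, H2-DMb1, H2-DMb2, Ctss and Ifi30. All 10 members were among the 35275 genes of the table, and all 10 passed the filter on low counts that left 13080 genes for testing. RNA of bone marrow macrophages from C57BL/6 mice was sequenced in 16 libraries, 4 in each of 4 groups. The groups were KO macrophages (Smad7 fl/fl + CAGGCre-ER) with TGF-β1, KO macrophages left untreated, Smad7 fl/fl macrophages with TGF-β1 and Smad7 fl/fl macrophages left untreated. In the KO mice the CAGG promoter drives a tamoxifen-inducible Cre recombinase in the whole animal rather than in myeloid cells alone, so the deletion was induced before the culture began. Both genotypes received tamoxifen (20 mg/kg on 5 days at 1 month of age), and the fl/fl littermates carried no Cre, so a Cre-positive control without floxed alleles is not among the groups. Marrow was taken 2 weeks later and grown in 15% serum with colony-stimulating factor 1, first at 12 ng/ml (24 hours) and then at 120 ng/ml (48 hours). Serum was withdrawn for about 12 hours, and TGF-β1 was given at 10 ng/ml for 4 hours or left out. The comparisons address how TGF-β1 changes macrophage expression and whether Smad7, an inhibitory Smad that restrains TGF-β receptors, alters that response. Nothing in the labels says which libraries came from separate animals, so p-values measure the spread between these libraries only. The protocol text speaks of 8 libraries where the labels list 16, and this discrepancy bears on each n of 4.

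MHC class II molecules are pairs of an α and a β chain that carry peptides from engulfed protein to the cell surface for CD4 T cells. New pairs bind the invariant chain, encoded by Cd74, which blocks the peptide groove and directs them to endosomes, where cathepsin S (Ctss) trims the invariant chain and the lysosomal thiol reductase GILT (Ifi30) opens disulfide bonds of the antigen. The H2-DM pair then exchanges the last invariant chain fragment for peptide. Transcription of the chain genes, of Cd74 and of the H2-DM genes depends on the coactivator CIITA, encoded by Ciita, which is induced by interferon-γ and binds factors already sitting on the X and Y boxes of these promoters. TGF-β is known as an inhibitor of class II expression in macrophages and other cells.

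Promoters from RefSeq (GRCm38.p6, 250 bases before to 50 after the start site) were found for 7 of the 10 members, and 4 of them are shown because they hold the pair of elements on which CIITA acts. Capitals mark the Y box core (GATTGG, the site of the factor NF-Y) and, ahead of it, an X box stretch (GATGATG) or the cyclic AMP response element (TGACGTCA) that some X boxes contain. Each stretch is written 5′ to 3′ on the strand of its gene.
H2-Aa, chr17:34287837-34287927, minus strand: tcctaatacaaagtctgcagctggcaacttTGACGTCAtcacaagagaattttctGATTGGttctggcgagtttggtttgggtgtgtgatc
H2-Eb1, chr17:34305752-34305842, plus strand: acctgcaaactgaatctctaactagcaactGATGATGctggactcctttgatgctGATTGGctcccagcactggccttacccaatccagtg
H2-DMb1, chr17:34153073-34153164, plus strand: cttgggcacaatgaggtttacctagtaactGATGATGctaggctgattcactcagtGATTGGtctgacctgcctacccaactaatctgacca
H2-DMb2, chr17:34145102-34145193, plus strand: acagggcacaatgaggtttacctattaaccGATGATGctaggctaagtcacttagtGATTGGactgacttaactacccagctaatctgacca
In all 4 stretches the elements lay 17 to 19 bases apart, with the Y box 43 to 85 bases before the annotated start site. On either strand, the Y box core was found in 16.1% of the 32851 RefSeq promoters, the X box stretch in 3.48% and the cyclic AMP response element in 1.79%, while a Y box core within 40 bases of either of the other elements was found in 0.399%. The letters were chosen with these promoters in view, so the matches are a description. The elements did not overlap each other, and H2-Eb1 held 1 further Y box core on the minus strand. The windows of Ctss and Ifi30 held none of the 3 motifs. The windows of H2-DMa held no such pair, and the nearer one held 1 Y box core. Their RefSeq start sites lay 12350 and 9664 bases ahead of the deposited start of H2-DMa, so they may not be its promoter. H2-DMb1 and H2-DMb2, neighbouring genes for near-identical β chains, matched at 79 of the 92 positions shown, and the RefSeq start of H2-DMb2 lay 1942 bases inside the deposited gene span.

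Total counts ran from 16865591 to 23741079 per library. Levels are given as CPM, reads scaled to the library total. With TGF-β1, the targeted gene Smad7 averaged 13.9 ± 4.36 CPM in KO and 45.5 ± 9.20 CPM in fl/fl macrophages (SD, n = 4 each). Untreated, Smad7 averaged 2.70 ± 2.14 CPM in KO and 4.99 ± 0.895 CPM in fl/fl macrophages (SD, n = 4 each). The deposited count covers the whole gene and does not separate the deleted part, and Smad7 was not called between genotypes with all libraries (adjusted p = 0.122 with TGF-β1 and 0.423 untreated, edgeR). Without the library labelled KO untreated replicate 1 it was called lower in KO (adjusted p = 8.90e-04 with TGF-β1 and 0.0322 untreated, edgeR). That library carried the TGF-β target Pmepa1, chosen after its values were seen, at 319.9 CPM, against 1.70 to 2.73 CPM in the other KO untreated libraries and 292 to 343 CPM in the KO libraries given TGF-β1. It goes against its label in this respect, and results that rest on KO untreated libraries are followed by their values without it. KO untreated replicate 2 also stood apart from its group, in 5.94% of tested genes by Dixon's criterion for an outlying library, beside 4.15% for KO untreated replicate 1, 5.71% for KO TGF-β1 replicate 1, 7.61% for fl/fl TGF-β1 replicate 4 and at most 1.87% for any other library. The 10 macrophage markers summed to 17697 to 25806 CPM in every library.

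Ordered by mean FPKM (a level scaled to gene length and library total), the members spanned a wide range of levels. Ctss came first at 916 FPKM, above 99.7% of tested genes, followed by Ifi30 at 85.3 and Cd74 at 33.1 FPKM. H2-DMa (10.2 FPKM) and H2-DMb1 (9.87 FPKM) were followed by the chains H2-Ab1 (5.61 FPKM), H2-Aa (4.34 FPKM) and H2-Eb1 (3.66 FPKM). Ciita (0.817 FPKM) and H2-DMb2 (0.697 FPKM) came last. Over the 16 libraries Ctss (661 to 1494 FPKM) lay above every Ifi30 value (65.8 to 116 FPKM), and Cd74 (17.2 to 82.2 FPKM) lay above every H2-DMa value (6.83 to 13.5 FPKM). The ranges of all other neighbours in this order overlapped, Ifi30 and Cd74 included. The same order was found with scaled CPM divided by gene length.

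**Figure D1:**
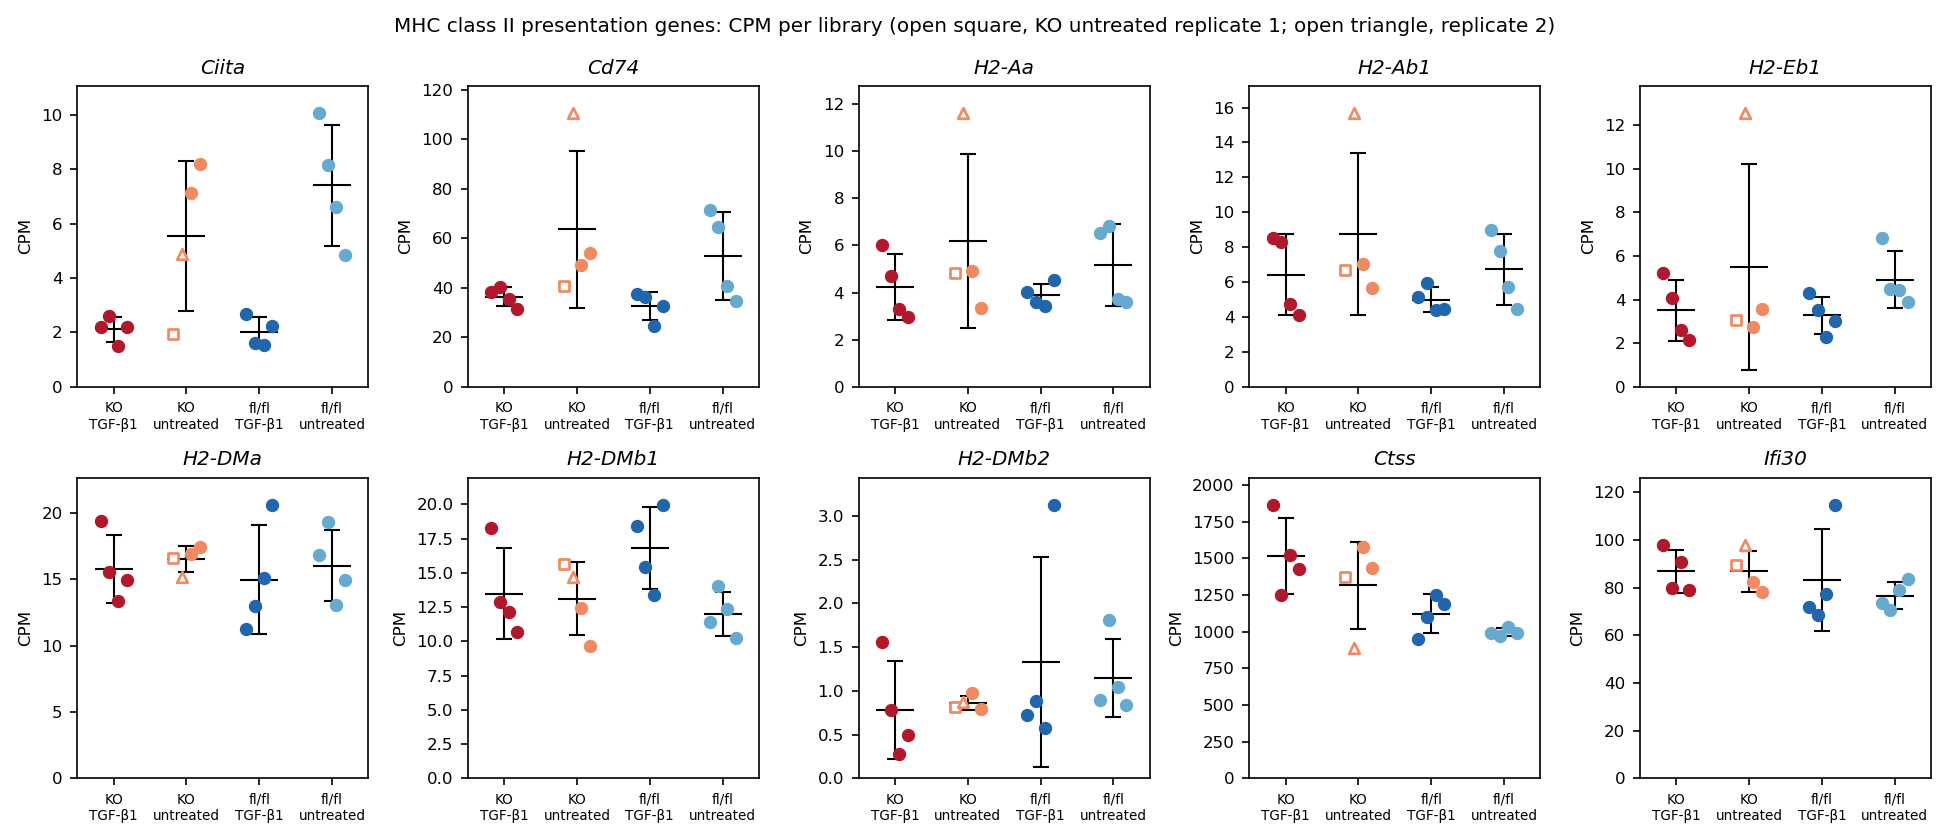
CPM of each member in each library (points) by group, with the group mean and SD (bar, n = 4). The open square is KO untreated replicate 1 and the open triangle KO untreated replicate 2. Ciita lies at or below 2.67 CPM in all TGF-β1 libraries and in the open square, and the triangle is the highest point for Cd74 and the 3 chains.

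Ciita fell with TGF-β1 in both genotypes, and with all libraries it was the only member that passed the test in either. Ciita (ENSMUSG00000022504, chromosome 16, 10488178 to 10527564, plus strand, mm10) encodes the coactivator on which the class II chain genes depend. In KO macrophages it was at 2.21, 2.60, 1.49 and 2.19 CPM with TGF-β1, against 1.96, 4.88, 7.13 and 8.19 CPM untreated. In fl/fl macrophages it was at 2.67, 1.62, 1.54 and 2.24 CPM with TGF-β1, against 10.0, 8.15, 6.60 and 4.84 CPM untreated. The fl/fl groups did not overlap, and the KO groups overlapped through replicate 1 of the untreated libraries alone. The log2 fold change was -1.88 ± 0.36 (SE) in fl/fl, a 3.67-fold lower level with TGF-β1 (adjusted p = 0.00223, edgeR quasi-likelihood test with Benjamini-Hochberg adjustment). In KO it was -1.38 ± 0.36 (SE), a 2.60-fold lower level (adjusted p = 0.0356, edgeR). Without KO untreated replicate 1 the KO groups lay apart, and the log2 fold change was -1.63 ± 0.29 (SE), a 3.10-fold lower level (adjusted p = 4.08e-04, edgeR).

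The call in fl/fl held whichever of the 16 libraries was left out (log2 fold change -2.04 to -1.70). The call in KO held in 7 of those 16 fits, with log2 fold changes of -1.63 to -1.10 and adjusted p-values of 4.08e-04 to 0.149 (edgeR), and it ended on leaving out any KO TGF-β1 library, KO untreated replicate 2, 3 or 4, or fl/fl untreated replicate 2 or 3. It was also lost with limma on the deposited FPKM (adjusted p = 0.0725) and in a fit of the KO libraries alone (adjusted p = 0.191, edgeR). With the replicate number as a block shared by both genotypes it was not called either (-1.39, adjusted p = 0.0592, edgeR). With the block and without KO untreated replicate 1 it was called (-1.75, adjusted p = 6.11e-04, edgeR). Ciita counts were low, between 27 and 168 reads per library. Dexi, looked at because it overlaps Ciita on the opposite strand, had 166 to 385 reads, and the named library kit is not said to keep strand, so reads of the shared stretch cannot be assigned by strand. Dexi had log2 fold changes of -0.11 ± 0.20 in KO and -0.12 ± 0.20 in fl/fl (SE, adjusted p = 0.889 and 0.757, edgeR).

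Cd74, the invariant chain, was lower with TGF-β1 by 1.75-fold in KO and 1.61-fold in fl/fl on average, without passing the test over all libraries. Cd74 (ENSMUSG00000024610, chromosome 18, 60803848 to 60812646) was at 38.5, 40.3, 35.5 and 31.3 CPM in KO TGF-β1 libraries, against 40.7, 110.4, 49.2 and 53.9 CPM in KO untreated libraries. In fl/fl it was at 37.4, 36.2, 24.7 and 32.6 CPM with TGF-β1, against 71.2, 64.5, 40.5 and 34.8 CPM untreated. The KO groups did not overlap, with a narrow margin between 40.3 and 40.7 CPM, whereas the fl/fl groups overlapped through replicate 4 of the untreated libraries. The log2 fold changes were -0.80 ± 0.28 in KO (SE, adjusted p = 0.113, edgeR) and -0.69 ± 0.28 in fl/fl (SE, adjusted p = 0.117, edgeR). Without KO untreated replicate 1, Cd74 was called lower with TGF-β1 in KO (-0.93 ± 0.26, SE, adjusted p = 0.0187, edgeR) and not in fl/fl (-0.69 ± 0.25, SE, adjusted p = 0.0608, edgeR). Cd74 was lower with TGF-β1 in each of the 4 same-numbered fl/fl pairs, and with the replicate block and without KO untreated replicate 1 it was called in fl/fl as well (-0.65, adjusted p = 0.0121, edgeR). With the block and all libraries it was not called in fl/fl (-0.65, adjusted p = 0.0636, edgeR). Without KO untreated replicate 2, the value in KO shrank to -0.39 (adjusted p = 0.484, edgeR), while in fl/fl Cd74 was called (-0.69 ± 0.20, SE, adjusted p = 0.0236, edgeR). Without both libraries it was -0.48 ± 0.23 in KO (SE, adjusted p = 0.236, edgeR) and -0.69 ± 0.19 in fl/fl (SE, adjusted p = 0.0169, edgeR). The fit pools the spread over the groups, which is how a KO library bears on the fl/fl test.

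In bulk RNA, fewer cells of a kind and less RNA per cell cannot be told apart, and this holds for each value here. Beside the lower Ciita and Cd74, the summed CPM of 9 B cell markers was also lower with TGF-β1, at 74.8 to 112 CPM in KO TGF-β1 against 117 to 195 CPM in KO untreated libraries, and at 92.4 to 123 CPM in fl/fl TGF-β1 against 165 to 216 CPM in fl/fl untreated libraries. Ighm made up 94.1% to 98.5% of that sum. The other 8 markers summed to 2.99 to 5.06 CPM in KO TGF-β1 and 3.78 to 4.97 CPM in KO untreated libraries. In fl/fl these 8 summed to 4.02 to 7.25 CPM with TGF-β1 and 3.17 to 4.59 CPM untreated, so the lower sum was that of Ighm. Only 3 of the 9 passed the filter on low counts, and in fl/fl 1 was called lower and 1 higher (7.61% and 7.87% of all tested genes). Pax5 and Blk had no read in any library. The B cell sum of KO untreated replicate 1, at 117 CPM, was the lowest of its group. The 7 T and NK cell markers summed to 4.83 to 6.43 CPM in KO TGF-β1 against 7.30 to 9.81 CPM in KO untreated libraries. In fl/fl they summed to 5.00 to 7.10 CPM with TGF-β1 against 8.86 to 10.9 CPM untreated. Only 1 of the 7 passed the filter on low counts, and Cd3e, Cd3g and Ncr1 were at 0 in every library. The macrophage sum was 17697 to 21694 CPM in fl/fl TGF-β1 against 21856 to 23983 CPM in fl/fl untreated libraries, and the KO ranges overlapped. Of its 10 markers, 5 had log2 fold changes with TGF-β1 below 0 in fl/fl and 5 above. Among them 1 was called lower and 1 higher, near the shares of all tested genes (7.61% and 7.87%). Dendritic cell markers, a list of 10 genes for cells that carry much class II, summed to 5.73 to 8.24 CPM in KO TGF-β1, 4.49 to 9.40 CPM in KO untreated, 7.41 to 12.1 CPM in fl/fl TGF-β1 and 8.16 to 11.1 CPM in fl/fl untreated libraries, ranges that overlapped. The part of any of these lists in the class II values was not tested.

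The 3 class II chains had lower mean levels with TGF-β1 in both genotypes, and none passed the test. H2-Ab1 (ENSMUSG00000073421), the β chain of the I-A molecule, was at 8.55, 8.29, 4.75 and 4.12 CPM in KO TGF-β1 libraries, against 6.68, 15.7, 7.04 and 5.67 CPM in KO untreated libraries. In fl/fl it was at 5.16, 5.96, 4.42 and 4.43 CPM with TGF-β1, against 8.97, 7.80, 5.73 and 4.46 CPM untreated. Both pairs of groups overlapped. H2-Aa (ENSMUSG00000036594), its α chain partner, was at 6.02, 4.71, 3.32 and 2.95 CPM in KO TGF-β1 libraries, against 4.82, 11.6, 4.92 and 3.36 CPM in KO untreated libraries. In fl/fl H2-Aa was at 4.01, 3.60, 3.41 and 4.54 CPM with TGF-β1, against 6.52, 6.81, 3.73 and 3.62 CPM untreated. H2-Eb1 (ENSMUSG00000060586), the β chain of I-E, was at 5.22, 4.07, 2.60 and 2.15 CPM in KO TGF-β1 libraries, against 3.06, 12.5, 2.75 and 3.57 CPM in KO untreated libraries. Each of the chains had its highest value of all 16 libraries in KO untreated replicate 2. In fl/fl H2-Eb1 was at 4.31, 3.5002, 2.26 and 3.02 CPM with TGF-β1, against 6.82, 4.48, 4.43 and 3.87 CPM untreated, and only 1 treated library, at 4.31 CPM, reached into the untreated range.

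On the log2 scale the chains differed with TGF-β1 by -0.54 (H2-Aa), -0.45 (H2-Ab1) and -0.64 (H2-Eb1) in KO and by -0.40, -0.43 and -0.58 in fl/fl, with SE of 0.32 to 0.43 and adjusted p-values of 0.421 to 0.551 (edgeR). The 95% intervals ran from -1.54 to 0.26 for H2-Eb1 in KO and from -1.49 to 0.33 in fl/fl, and the first of these reaches the change of Ciita in KO. The KO values without KO untreated replicate 1 were -0.60, -0.52 and -0.80 for H2-Aa, H2-Ab1 and H2-Eb1. In KO these values rested on replicate 2 of the untreated libraries, and without it alone they were -0.03, 0.0035 and 0.18. Without KO untreated replicates 1 and 2 they were 0.06 for H2-Aa, 0.04 for H2-Ab1 and 0.17 for H2-Eb1. In fl/fl the values were -0.41, -0.43 and -0.59 in the same fit. These 3 genes lie near each other on chromosome 17 (mm10), H2-Ab1 at 34263209 to 34269418, H2-Aa at 34282744 to 34287827 and H2-Eb1 at 34305877 to 34316199.

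The H2-DM genes, whose products load peptide, showed no call in either genotype. H2-DMa (ENSMUSG00000037649, chromosome 17, 34135182 to 34139101) averaged 15.8 ± 2.56 CPM in KO TGF-β1 and 16.5 ± 0.979 CPM in KO untreated libraries, and 15.0 ± 4.07 CPM in fl/fl TGF-β1 and 16.01 ± 2.67 CPM in fl/fl untreated libraries (SD, n = 4 each). Its log2 fold change with TGF-β1 was -0.07 in KO (95% interval -0.43 to 0.30) and -0.09 in fl/fl (-0.46 to 0.27), intervals that do not reach the change of Ciita, and without KO untreated replicate 1 the KO value was -0.04. H2-DMb1 (ENSMUSG00000079547, chromosome 17, 34153072 to 34160230) was at 18.4, 15.5, 13.4 and 20.0 CPM in fl/fl TGF-β1 libraries, against 11.4, 14.04, 12.3 and 10.3 CPM in fl/fl untreated libraries. It was higher in 3 of the 4 treated libraries than in every untreated one, with a log2 fold change of 0.48 ± 0.19 (SE) that missed the threshold (adjusted p = 0.0951, edgeR). In KO the H2-DMb1 value was 0.04 ± 0.19 (SE, adjusted p = 0.969, edgeR), from 13.5 ± 3.32 CPM with TGF-β1 and 13.1 ± 2.67 CPM untreated (SD, n = 4 each). Without KO untreated replicate 1 the KO value of H2-DMb1 was 0.17, again without a call. H2-DMb2 (ENSMUSG00000037548, chromosome 17, 34143307 to 34151553) was the lowest member, at 61 and 71 reads in all in the KO TGF-β1 and KO untreated groups and at 101 and 90 reads in the fl/fl TGF-β1 and fl/fl untreated groups. Over the alternative fits the log2 fold change of H2-DMb2 with TGF-β1 ran from -0.71 to 0.12 in KO and from -0.64 to 0.51 in fl/fl, without a call. Reads shared by H2-DMb1 and H2-DMb2 may have been split or dropped in the authors' counting, so the balance between these paralogs is uncertain.

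Ctss and Ifi30, the endosomal protease and thiol reductase, were also without a call for TGF-β1. Ctss (ENSMUSG00000038642, chromosome 3, 95526786 to 95556403) averaged 1517 ± 258 CPM in KO TGF-β1 and 1316 ± 299 CPM in KO untreated libraries, and 1122 ± 132 CPM in fl/fl TGF-β1 and 996 ± 25.9 CPM in fl/fl untreated libraries (SD, n = 4 each). A pseudogene on the same strand, Hmgb1-ps5, overlaps Ctss and had 28 to 169 reads per library. The log2 fold changes of Ctss with TGF-β1 were 0.21 ± 0.16 in KO and 0.17 ± 0.16 in fl/fl (SE, adjusted p = 0.590 and 0.529, edgeR), and the KO value without KO untreated replicate 1 was 0.25 ± 0.17 (SE, adjusted p = 0.435, edgeR). Ifi30 (ENSMUSG00000031838, chromosome 8, 70762774 to 70766663) averaged 86.8 ± 9.09 CPM in KO TGF-β1 and 86.9 ± 8.67 CPM in KO untreated libraries, and 83.1 ± 21.4 CPM in fl/fl TGF-β1 and 76.7 ± 5.79 CPM in fl/fl untreated libraries (SD, n = 4 each). Its 95% intervals of the log2 fold change, -0.30 to 0.30 in KO and -0.18 to 0.41 in fl/fl, do not reach the change of Ciita, and without KO untreated replicate 1 the KO value was 0.04.

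Read as a set, 1 of the 10 members was lower and 0 were higher with TGF-β1 in KO, where 2.97% of all tested genes were called lower and 2.19% higher. In fl/fl, 1 of 10 members was lower and 0 were higher, where 7.61% of tested genes were lower and 7.87% higher. Without KO untreated replicate 1 the counts were 2 lower and 0 higher in KO (6.88% and 8.33% of tested genes) and 1 lower and 0 higher in fl/fl (9.23% and 8.91%). With 10 members, a count of 1 or 2 is not read as a result about the set. The median log2 fold change of the members with TGF-β1 was -0.30 in KO and -0.25 in fl/fl, beside -0.03 and -0.01 over all tested genes. The KO median was -0.33 without KO untreated replicate 1, and without replicates 1 and 2 it was 0.04, with 4 members below 0 and 6 above. With all libraries Ciita, Cd74 and the 3 chains had values of -0.40 or lower in both genotypes. In KO this did not hold for Cd74 (-0.39) or the chains without KO untreated replicate 2. Values of H2-DMa, Ctss and Ifi30 lay between -0.09 and 0.21, and those of H2-DMb1 and H2-DMb2, given above, are not part of this range.

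**Figure D2:**
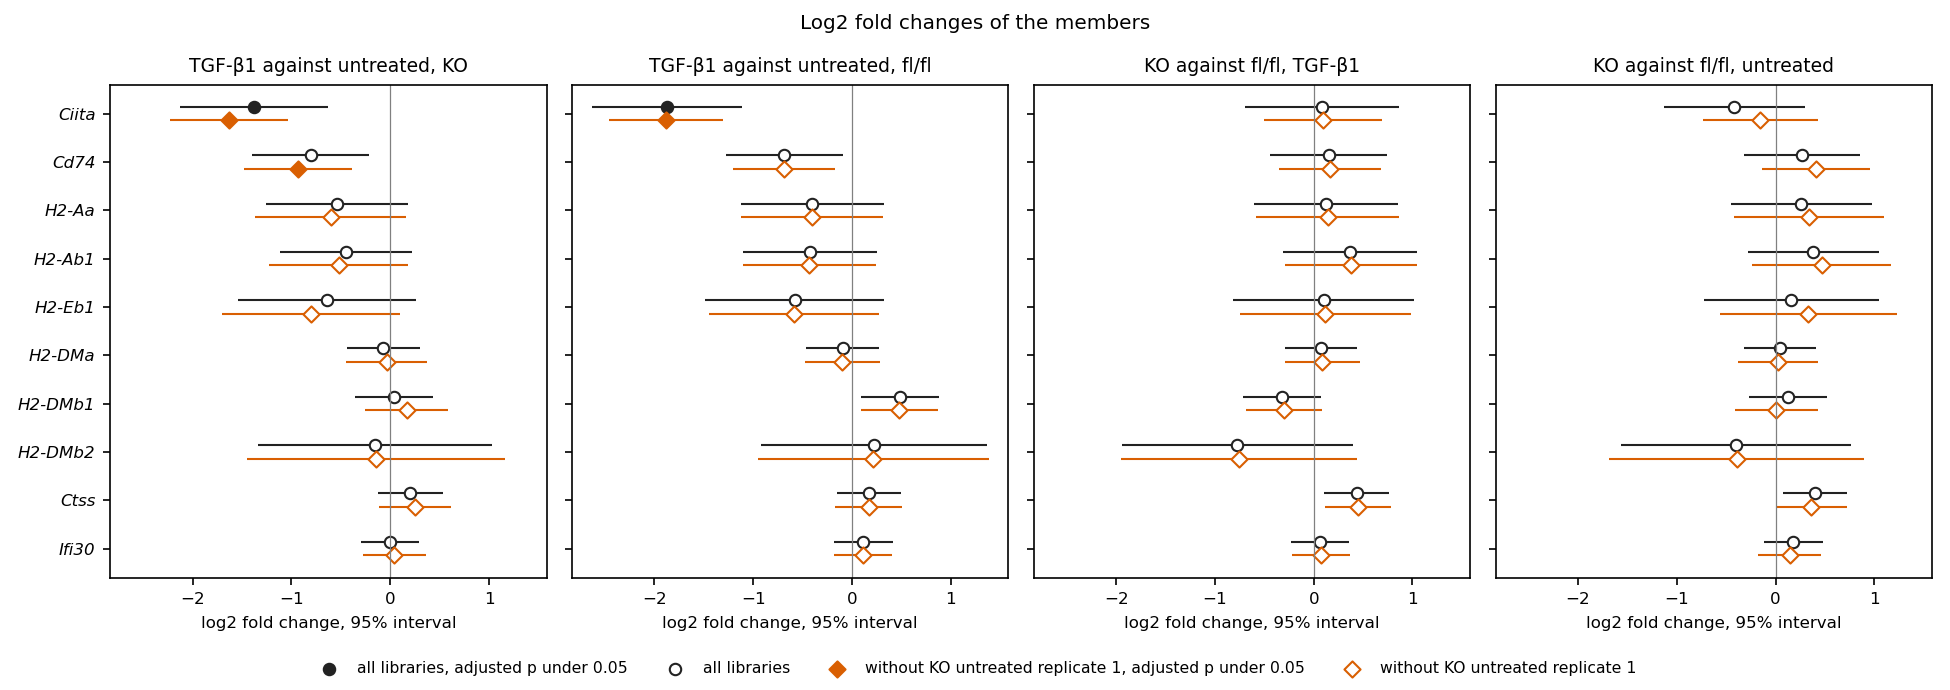
Log2 fold change of each member with its 95% interval in the 4 pairwise comparisons, with all libraries (circles) and without KO untreated replicate 1 (diamonds). Filled symbols have an adjusted p under 0.05 (edgeR): Ciita with TGF-β1 in both genotypes, and Cd74 in KO without that library.

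No member differed between genotypes by the test, with or without TGF-β1. With TGF-β1, KO against fl/fl gave log2 fold changes between -0.77 (H2-DMb2) and 0.44 (Ctss), with 0 of 10 members called by edgeR, where 0.0382% of tested genes were called (0.0612% without KO untreated replicate 1). In untreated macrophages they lay between -0.42 (Ciita) and 0.40 (Ctss), again with 0 of 10 called by edgeR, where 0.0459% of tested genes were called (0.0994% without that library). The H2-DMb2 value rested on fl/fl TGF-β1 replicate 4, which held 60 of its group's 101 reads, and without that library it was 0.09. DESeq2 and limma also called 0 members in both comparisons. At an unadjusted p under 0.05, 1 of 10 members passed in each, and it was Ctss both times, where 5.61% of all tested genes passed with TGF-β1 and 10.9% untreated. Ctss was at 1865, 1251, 1526 and 1429 CPM in KO TGF-β1 libraries, against 947, 1101, 1251 and 1189 CPM in fl/fl TGF-β1 libraries. Untreated, Ctss was at 1371, 886, 1575 and 1431 CPM in KO, against 990, 971, 1032 and 992 CPM in fl/fl. In the untreated pair 3 of 4 KO libraries lay above all fl/fl libraries, and KO untreated replicate 2 lay below them all. The log2 fold changes of Ctss were 0.44 ± 0.16 with TGF-β1 (95% interval 0.11 to 0.76, adjusted p = 0.877, edgeR) and 0.40 ± 0.16 untreated (0.07 to 0.73, adjusted p = 0.414, edgeR). Leaving out KO untreated replicate 1 gave 0.45 ± 0.16 and 0.36 ± 0.17 (SE, adjusted p = 0.730 and 0.415, edgeR).

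For the members that varied with TGF-β1, the genotypes could not be separated. Ciita in KO against fl/fl differed by 0.08 with TGF-β1 (95% interval -0.69 to 0.86) and by -0.42 untreated (-1.13 to 0.30), where leaving out KO untreated replicate 1 gave -0.15 (-0.73 to 0.43). Cd74 differed by 0.15 with TGF-β1 (-0.44 to 0.75) and by 0.27 untreated (-0.31 to 0.86), or 0.41 (-0.14 to 0.96) without KO untreated replicate 1. The genotype difference in the TGF-β1 response, tested as an interaction, was 0.50 ± 0.50 log2 for Ciita (SE, 95% interval -0.56 to 1.55, adjusted p = 0.993, edgeR) and -0.12 ± 0.39 for Cd74 (SE, -0.95 to 0.71, adjusted p = 0.994, edgeR). Without KO untreated replicate 1 these values were 0.25 ± 0.39 (-0.58 to 1.08, adjusted p = 0.982, edgeR) and -0.24 ± 0.36 (-0.997 to 0.51, adjusted p = 0.982, edgeR). With all libraries H2-DMb1 differed by -0.45 ± 0.27 (SE, -1.004 to 0.11, adjusted p = 0.993, edgeR), and without KO untreated replicate 1 by -0.31. In this interaction 0 members and 0% of all tested genes were called by edgeR, with 275 genes at an unadjusted p under 0.05, and DESeq2 called 1 gene, no member among them. Leaving out KO untreated replicate 1 again gave 0%. The intervals leave room for a difference in the Ciita response of up to 1.55 log2 units, so equality of the genotypes is not shown.

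**Figure D3:**
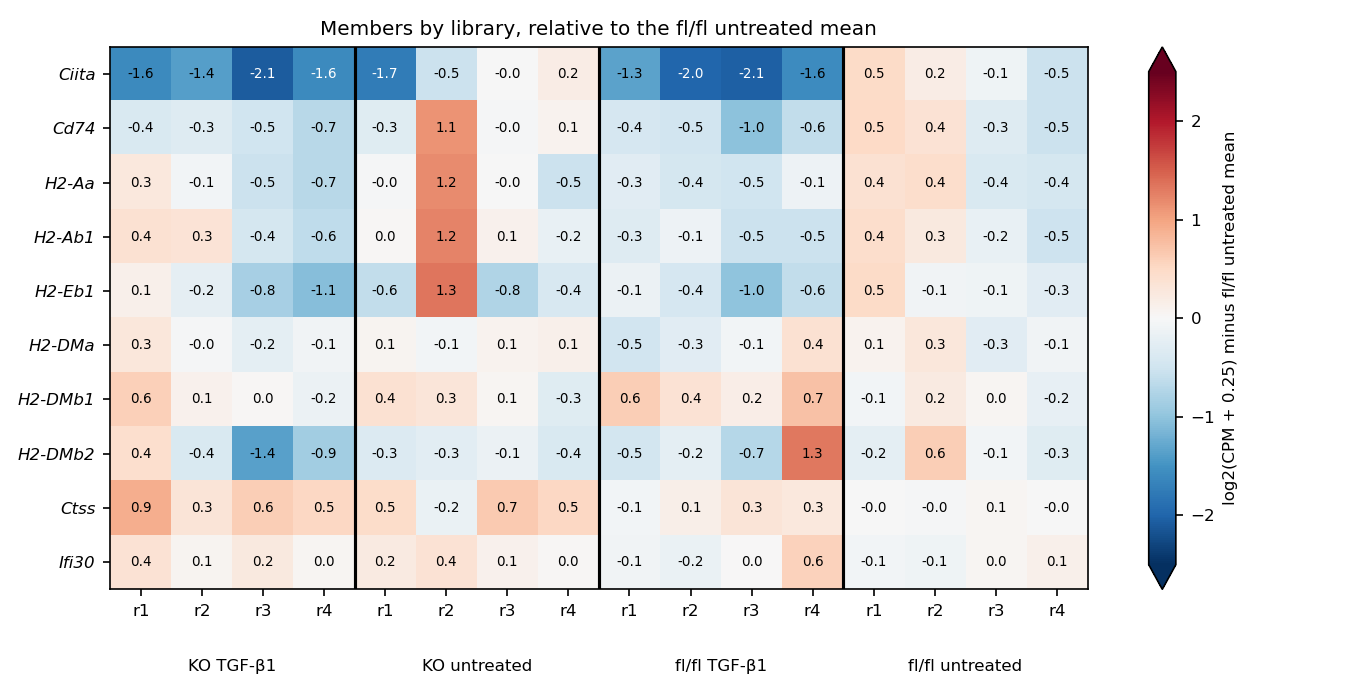
Log2(CPM + 0.25) of each member in each library minus the mean of the fl/fl untreated libraries, with groups separated by black lines and replicates numbered. Ciita is negative throughout both TGF-β1 groups and in KO untreated replicate 1 (-1.75), and KO untreated replicate 2 is positive for Cd74 and the chains (1.13 to 1.34) while Ciita there is at -0.53.

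Ratios within a library set Ciita apart from its target genes. The summed FPKM of H2-Aa, H2-Ab1 and H2-Eb1 over that of Ciita was 40.002, 29.2, 31.9 and 18.7 in KO TGF-β1 libraries, against 33.2, 36.4, 9.19 and 6.84 in KO untreated libraries. In fl/fl the ratio was 22.5, 35.9, 29.3 and 24.0 with TGF-β1, against 9.90, 10.47, 9.37 and 11.02 untreated. The fl/fl groups did not overlap, and the untreated ones lay within a narrow band. KO untreated replicates 1 and 2 both had ratios in the range of the treated libraries. Replicate 1 did so through a low Ciita and replicate 2 through high chains. Cd74 over the summed chains varied over a narrower range. It was 1.62 to 2.84 in KO TGF-β1 and 2.32 to 3.59 in KO untreated libraries. In fl/fl it was 2.04 to 2.32 with TGF-β1 and 2.43 to 2.81 untreated, ranges that did not overlap. In KO untreated replicate 2 the summed chains were at 35.5 FPKM and Cd74 over chains at 2.32, so the invariant chain and the 3 chains were high together there. H2-DMb1 over H2-DMa was 0.795 to 1.05 in KO TGF-β1, 0.614 to 1.07 in KO untreated, 0.981 to 1.82 in fl/fl TGF-β1 and 0.753 to 1.05 in fl/fl untreated libraries. These ratios carry no test here.

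**Figure D4:**
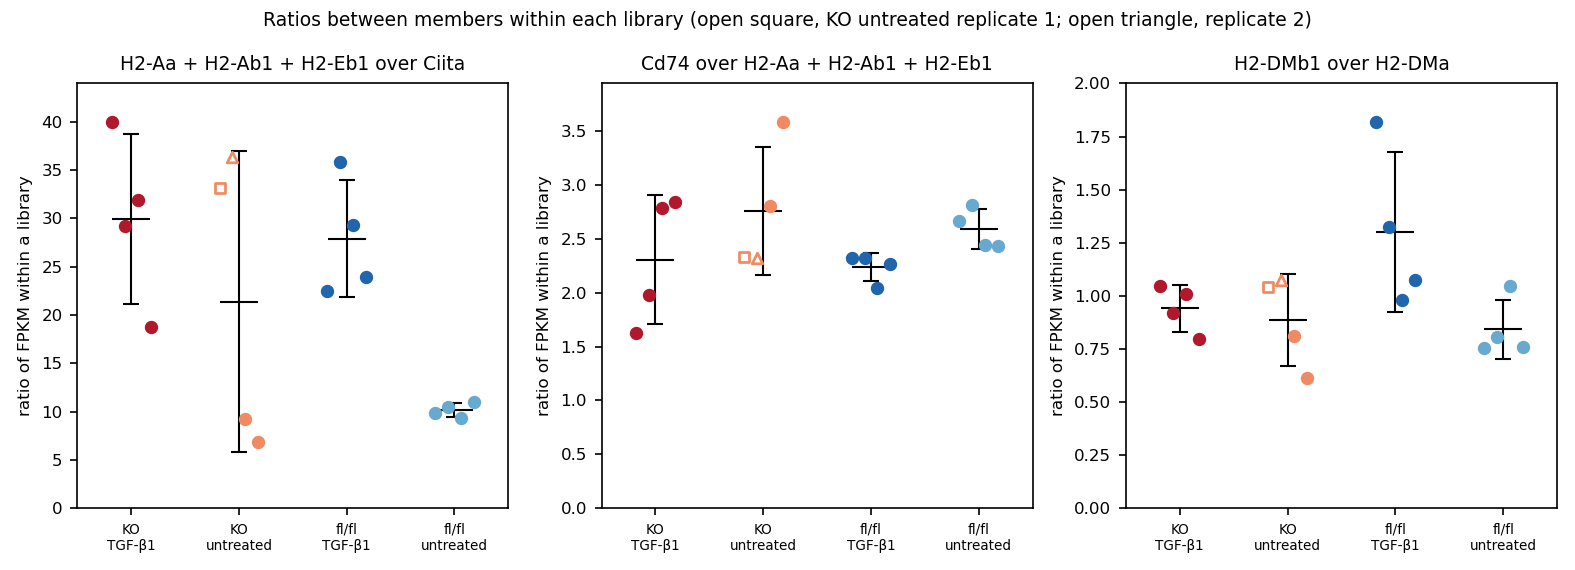
Ratios of FPKM between members within each library (points) by group, with mean and SD (n = 4). The ratio of the 3 chains to Ciita is 9.37 to 11.02 in fl/fl untreated libraries and 22.5 to 35.9 in fl/fl TGF-β1 libraries, and KO untreated replicates 1 (square) and 2 (triangle) lie at 33.2 and 36.4.

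Of 9 genes of the interferon-γ pathway that leads to Ciita, 3 fell and 1 rose with TGF-β1 in KO (2.97% and 2.19% of all tested genes), and 3 fell and 2 rose in fl/fl (7.61% and 7.87%). Without KO untreated replicate 1, 4 fell and 1 rose in KO (6.88% and 8.33% of all tested genes), and 3 fell and 2 rose in fl/fl (9.23% and 8.91%). Irf1, a transcription factor that activates the interferon-responsive Ciita promoter, was at 40.9, 33.0, 36.5 and 33.3 CPM in KO TGF-β1 libraries, against 29.4, 70.8, 107 and 112 CPM in KO untreated libraries. In fl/fl it was at 31.4, 31.0, 30.2 and 34.5 CPM with TGF-β1, against 79.3, 78.6, 62.6 and 68.4 CPM untreated. As for Ciita, the fl/fl groups lay apart and KO untreated replicate 1 was the one KO library out of place. Irf1 changed by -1.15 ± 0.27 log2 in KO (SE, adjusted p = 0.0267, edgeR) and by -1.18 ± 0.27 in fl/fl (SE, adjusted p = 0.00727, edgeR), and by -1.40 ± 0.14 in KO without KO untreated replicate 1 (SE, adjusted p = 1.12e-06, edgeR). Ifngr1, the ligand-binding chain of the interferon-γ receptor, fell by 0.60 log2 in KO and by 0.72 in fl/fl, and Irf2, a factor related to Irf1, fell by 0.36 in KO and by 0.50 in fl/fl. Ifngr1 fell by 0.72 and Irf2 fell by 0.42 in KO without KO untreated replicate 1. Irf8, a myeloid interferon regulatory factor, rose by 0.46 in KO (0.57 without that library) and 0.65 in fl/fl, and Ifngr2, the signalling chain of the receptor, rose by 0.35 in fl/fl. Socs1, a feedback inhibitor of the pathway, passed the test only without KO untreated replicate 1, in KO (-2.25 ± 0.49, SE, adjusted p = 0.00320, edgeR). Ifngr2, Socs1 and the RFX subunits were named after their values were seen. The median log2 fold change of the 9 genes was -0.13 in KO and -0.15 in fl/fl, beside -0.03 and -0.01 for all tested genes, and -0.24 in KO without KO untreated replicate 1.

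The factors that sit on the class II promoters were mostly without a call. Of 11, 1 rose and 0 fell in KO (2.19% and 2.97% of all tested genes), and 1 rose and 1 fell in fl/fl (7.87% and 7.61%), shares in fl/fl near those of all genes. The counts were the same without KO untreated replicate 1, where 8.33% of all tested genes rose and 6.88% fell in KO, and 8.91% rose and 9.23% fell in fl/fl. Nfya, the subunit of NF-Y that contacts the Y box shown above, averaged 176 ± 2.08 CPM in KO TGF-β1 and 128 ± 19.1 CPM in KO untreated libraries, and 168 ± 9.53 CPM in fl/fl TGF-β1 and 105 ± 4.16 CPM in fl/fl untreated libraries (SD, n = 4 each). It rose by 0.46 log2 in KO (adjusted p = 0.0187, edgeR) and by 0.68 in fl/fl (adjusted p = 6.97e-04, edgeR), with no overlap of groups in either, and by 0.59 in KO without KO untreated replicate 1. Kat2b, an acetyltransferase that acts with CIITA, fell by 0.62 log2 in fl/fl (adjusted p = 0.00394, edgeR) and differed by -0.39 ± 0.13 in KO (SE, adjusted p = 0.0988, edgeR), or -0.42 ± 0.14 without that library (SE, adjusted p = 0.0534, edgeR). The RFX subunits Rfx5, Rfxap and Rfxank were not called in any comparison. The median log2 fold change of the 11 was 0.05 in KO (0.17 without KO untreated replicate 1) and 0.08 in fl/fl.

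Among 12 other genes of endosomal processing and class II turnover, 2 rose and 0 fell in KO (2.19% and 2.97% of all tested genes), and 2 rose and 1 fell in fl/fl (7.87% and 7.61%). Without KO untreated replicate 1, 3 rose and 0 fell in KO (8.33% and 6.88% of all tested genes), and 3 rose and 1 fell in fl/fl (8.91% and 9.23%). Ctsh, a lysosomal aminopeptidase, averaged 217 ± 48.1 CPM in KO TGF-β1 and 141 ± 38.1 CPM in KO untreated libraries, and 150 ± 10.1 CPM in fl/fl TGF-β1 and 81.6 ± 2.21 CPM in fl/fl untreated libraries (SD, n = 4 each), with log2 fold changes of 0.62 and 0.88 (adjusted p = 0.0415 in KO and 0.00224 in fl/fl, edgeR). Cd9, a tetraspanin of the macrophage surface, rose by 0.78 in KO and 0.83 in fl/fl. The KO values without KO untreated replicate 1 were 0.81 for Ctsh and 1.04 for Cd9. March1, the ubiquitin ligase that removes class II from the surface, fell by 0.82 log2 in fl/fl (adjusted p = 0.0240, edgeR) and differed by -0.40 ± 0.23 in KO (SE, adjusted p = 0.423, edgeR), or -0.52 ± 0.23 without that library (SE, adjusted p = 0.158, edgeR). Ctsd, an aspartic protease, was called higher only without KO untreated replicate 1, at 0.51 in KO and 0.42 in fl/fl. The median log2 fold change of the 12 was 0.02 in KO (0.05 without KO untreated replicate 1) and -0.01 in fl/fl. In none of these 3 lists was a gene called between genotypes or for the difference in response.

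Of 4 further class II genes, H2-Ea-ps, the I-E α chain locus that is not transcribed in mice of the b haplotype such as C57BL/6, had no read in any library. Over the summed total, 0 reads allow up to 0.00944 CPM at a floor of 3 counts, for counting error only. C57BL/6 mice are known to lack I-E at the cell surface, so H2-Eb1 is followed here as RNA alone. H2-Eb2 had 3 reads, all in fl/fl untreated replicate 2. H2-Oa and H2-Ob encode the H2-O pair, an inhibitor of H2-DM found mainly in B cells, and both were scarce. H2-Oa had 18, 33, 21 and 19 reads summed over the KO TGF-β1, KO untreated, fl/fl TGF-β1 and fl/fl untreated libraries and did not pass the filter, and H2-Ob, with 34, 35, 57 and 37 reads in the same groups, was tested and not called.

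The genes whose pattern was most like that of Cd74 and the 3 chains were Timm10b, Slc25a43, Emd, Cd14, Tnfrsf10b and Asap2. Likeness was the Pearson correlation over the 16 libraries between a gene's log2 CPM and the mean standardised log2 CPM of H2-Aa, H2-Ab1, H2-Eb1 and Cd74, and it was 0.864 to 0.835 for these 6 of 13070 genes. The libraries share the treatment groups, and 1 library carried much of the pattern: without KO untreated replicate 2 the values were 0.586 to 0.818. Cd14, a surface receptor for bacterial lipopolysaccharide, was at 1053 CPM in that library, against 332 to 434 CPM in the other KO untreated libraries. Among the members, Ciita reached 0.511 by the same measure, H2-DMb2 0.276, H2-DMa 0.228, H2-DMb1 0.136, Ifi30 0.123 and Ctss -0.391. These values are descriptions with no test.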

How the data were processed

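RNA of 16 libraries was measured, 4 in each of 4 groups set by the labels. The deposited table held a read count per gene and library, and a second table held FPKM values that the authors made from those counts: 100% of positive values equalled count over length and total within 0.1%. TopHat2 2.0.9, HTSeq 0.6.1 and Cufflinks 2.1.1 and the build mm10 are named in the submitters' processing notes, with no role given, and the strand setting of the counting is not given in the sources used here. Counts were tested in R 4.3.3 with edgeR 4.0.16 (low-count filter leaving 13080 genes, TMM scaling, robust quasi-likelihood fit of the 4 groups together, Benjamini-Hochberg threshold 0.05 over all tested genes). The SE is the absolute log2 fold change over the root of F. CPM uses the TMM-scaled total. The code of the fit was run on simulated counts with the same spread for all genes and changes in the fl/fl TGF-β1 group only. No outlying library was simulated, so that run does not bear on the KO fits. The effect of TGF-β1 was tested within KO and within fl/fl, the effect of genotype with and without TGF-β1, and the interaction last. Alternatives were DESeq2 1.42.0, limma 3.58.1 on FPKM, other scaling and filters, a replicate block, and left-out libraries. All members are named. Of each other list, called genes were named, at most 4 by the smallest p, with genes listed at 0, and any others are said to be chosen after their values were seen. Likeness names the 6 genes with the highest correlation. Members and lists were chosen with earlier results of these data known. Leaving out KO untreated replicates 1 and 2 together was chosen after seeing the data. The fit of only the groups compared without KO untreated replicate 1 was not planned beforehand either. Totals of 16865591 to 23741079 counts limit precision for H2-DMb2, H2-Eb1 and Ciita. The labels do not say that replicate numbers pair libraries. Deviations from the group means of same-numbered libraries correlated at 0.123 to 0.181 between treatments in fl/fl, above 0.1 in 4 of 4 pairs. Treated replicate 2 correlated best with untreated replicate 1. The numbers may pair the fl/fl libraries, and the main fit does not use such a pairing. In KO the deviations correlated at 0.075 to 0.239 (2 of 4 above 0.1), and between genotypes at -0.175 to -0.022. The replicate block gave each number the same effect in both genotypes, which these negative correlations do not bear out. Some genes of the lists are counted in their list and not reported singly here.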

Additional observations from a re-analysis of the deposited data

Results flagged for a closer look

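Of 40 sets of 4 libraries checked by Dixon's criterion (10 members in 4 groups), 3 had a library far from the others, and chance gives about 1 in 20. H2-Ab1 in KO untreated replicate 2 was at 15.7 CPM, with the nearest library of its group at 7.04 CPM. H2-Eb1 in the same library was at 12.5 CPM, with the nearest at 3.57 CPM. H2-DMb2 in fl/fl TGF-β1 replicate 4 was at 3.13 CPM, with the nearest at 0.888 CPM.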

How the results depend on the processing

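The call of Ciita with TGF-β1 in fl/fl held in all 24 alternatives run (log2 fold change -2.04 to -0.80), and the call in KO held in 13 of 25. No log2 fold change of a member that was called changed sign. Over all alternatives a member lost a call 12 times, each time Ciita with TGF-β1 in KO. A call was gained 6 times, each time by Cd74 with TGF-β1 in KO or in fl/fl. The block changed no call of a member beside those given with Ciita and Cd74. With the replicate block, 0 members were called in KO (Ciita -1.39, adjusted p = 0.0592, edgeR). The count of members called in KO was also 0 with limma and with only the groups compared. It was 2 with the block and no KO untreated replicate 1, 2 with only the groups compared and no such library, and 0 to 2 on leaving out 1 library. In fl/fl it was 2 with the block and no KO untreated replicate 1, 2 without KO untreated replicates 1 and 2, and 1 to 2 on leaving out 1 library. Of all genes, 676 were called in KO. The count was 446 with no filter, 1073 with DESeq2, 0 with only the groups compared, 1740 with the replicate block and no KO untreated replicate 1, 1789 without replicates 1 and 2, and 1839 with only the groups compared and no replicate 1. Leaving out 1 library gave 93 (KO untreated replicate 4) to 1989 (KO untreated replicate 1). In fl/fl 2025 genes were called, and 1379 to 2372 on leaving out 1 library. Between genotypes, 6 untreated genes became 10 with no filter, 54 with DESeq2 and 4 to 13 on leaving out 1 library, and 5 genes with TGF-β1 became 20 with DESeq2, 10 without KO untreated replicates 1 and 2, and 4 to 8 on leaving out 1 library. For the interaction, DESeq2 called 1 gene. The causes were not tested. RLE scaling moved the median of all genes by 0.014 in KO and by less than that in the other comparisons. Depth limits H2-DMb2, H2-Eb1 and Ciita, the members with the fewest reads (323, 1341 and 1348 in all).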
